A study of Homo sapiens with 16 samples.

Results

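The genes described here encode translation initiation factors, the proteins that bring the ribosome to a messenger RNA and set it at the start codon. Members were the genes of the deposited count table whose symbol begins with EIF1 to EIF6, without the EIF2AK kinases, pseudogenes, antisense names and genes of chromosome Y. The 3 EIF4EBP genes, which encode repressors of the cap-binding protein, were kept. This gave 51 genes of the 34618 in the table. The rule reads names and no measured value, but it was written with earlier results of these data known.

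Polyadenylated RNA was sequenced from KG1A and U937, 2 established human myeloid lines used as models of acute myeloid leukaemia. KG1A is immature and marked by CD34, and U937 is promonocytic. Each line received either the vehicle DMSO or 10 µM NEL, in 4 libraries per group and 16 in all, and every group grew in RPMI medium with dialyzed serum. The labels give the short form NEL alone and no treatment time, and it is read here, from knowledge of the study, as the purine analogue nelarabine. Each cell type was represented by 1 established line, and the labels do not state that the libraries of a group are separate cultures. The spread behind each p-value is thus one between libraries and may be technical.

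As background, initiation begins when eIF2, carrying GTP and the initiator tRNA, joins the small ribosomal subunit together with eIF1, eIF1A, eIF3 and eIF5. The cap complex, made of the cap-binding protein eIF4E, the scaffold eIF4G and the helicase eIF4A, recruits this assembly to the 5′ end of the mRNA. 2 switches control the rate. Phosphorylation of eIF2 blocks its recycling by the exchange factor eIF2B, and 4E-binding proteins hold eIF4E away from eIF4G until the kinase mTORC1 phosphorylates them. The counts report mRNA, not protein or phosphorylation.

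Total counts per library ran from 10641567 to 11777684, and levels are given as CPM, the count relative to the library total after TMM scaling. By counting error alone, a gene with no count in a library could stand as high as 0.255 to 0.282 CPM. Of the markers of the lines, CD34 stood at 889 CPM in KG1A and 0.333 CPM in U937 with DMSO, and LYZ at 71.5 CPM in U937 with DMSO. MPO, listed as a marker of U937, stayed under 0.5 CPM in every group. CD33, SPI1 and PTPRC were listed for both lines. With DMSO they stood at 0.256, 2.56 and 842 CPM in KG1A and at 89.6, 139 and 195 CPM in U937. CD7, listed for KG1A, stood at 58.7 CPM there and 0 in U937 with DMSO. ITGAM and CD4, listed for U937, stood at 8.81 and 191 CPM there and 2.23 and 0.0693 CPM in KG1A with DMSO. Of the markers of other cells, CD3E stood at 27.5 CPM in KG1A with DMSO, and HBB was listed at 0 in every group. Within every group the libraries numbered 1 and 3 stood apart from those numbered 2 and 4 for many of the genes. Of the 49 members tested over all 16 libraries, 16 (32.7%) had both even-numbered libraries above both odd-numbered ones in all 4 groups, against 7.14% of all genes tested, and 3 (6.12%) had them below, against 6.35%. EIF3A, the largest eIF3 subunit, read 355, 422, 345 and 405 CPM in libraries 1 to 4 of KG1A with DMSO. For that reason medians within the odd and the even libraries are given beside pooled ones, and the fit with the replicate number as a block is given where it changes a call.

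Together the 51 genes took 0.918, 0.943, 0.935 and 0.947% of the counts in the 4 KG1A libraries with DMSO and 0.840, 0.882, 0.869 and 0.893% with NEL. In U937 they took 1.06, 1.10, 1.06 and 1.12% with DMSO and 0.843, 0.870, 0.838 and 0.861% with NEL. In both lines every NEL library was below every DMSO library. In bulk RNA, fewer cells of one kind and less of these mRNAs per cell cannot be told apart.

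Per exon length, the most abundant member in KG1A with DMSO was EIF4EBP1, which encodes 4E-BP1, at 286 ± 16.9 RPKM (mean ± SD, n = 4, deposited RPKM). EIF3E followed at 124 ± 3.46 RPKM and EIF4G2, a scaffold related to eIF4G that lacks the eIF4E-binding part, at 112 ± 2.52 RPKM. In U937 with DMSO, EIF5A led at 232 ± 8.77 RPKM, and its libraries overlapped those of EIF4EBP1 at 224 ± 13.4 RPKM. EIF3I came next in U937 at 136 ± 4.72 RPKM, apart from its neighbours on both sides. EIF4E, the cap-binding protein itself, was far lower in this order, at 3.08 ± 0.388 RPKM in KG1A and 2.54 ± 0.353 RPKM in U937. The order depends on the deposited exon lengths, 14067 bases for EIF4E and 1073 bases for EIF4EBP1. In KG1A with DMSO, EIF4E stood at 44.1 CPM and EIF4EBP1 at 313 CPM, a smaller gap than in RPKM.

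NEL lowered more initiation factor genes than it raised, in both lines. Calls are edgeR quasi-likelihood tests at a Benjamini-Hochberg adjusted p under 0.05 over all genes. In KG1A, 48 members were tested, of which 3 rose and 20 fell, beside 23.6% of all tested genes that rose and 23.6% that fell. In U937, 49 were tested, of which 7 rose and 36 fell, beside 34.6% and 34.7% of all tested genes. The median log2 fold change of the members was -0.13 in KG1A and -0.37 in U937. The median of all genes stood between -0.02 and 0.07 in these 2 comparisons under every scaling tried, and that of the members stayed below 0 under each. Both the share that fell and its excess over the share that rose were thus larger in the members than in the table as a whole, which is a description of the genes chosen and not a test of them.

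The changes were small in KG1A, where the members that fell did so by 1.08-fold to 1.44-fold and none reached 2-fold. In U937 the members that fell did so by 1.09-fold to 2.44-fold, and 5 passed 2-fold: EIF4G1, EIF3B, EIF5A, EIF3J and EIF5AL1. EIF5AL1 is a copy of EIF5A that shares part of its sequence, so those falls may not be independent. In the odd libraries alone the median of the members was -0.15 in KG1A and -0.36 in U937, and in the even ones -0.11 and -0.35. The groups did not overlap, with NEL above DMSO, for 4 members in KG1A (21.9% of all tested genes) and 6 in U937 (31.3%). With NEL below DMSO, they did not overlap for 20 (20.2%) and 34 (31.1%).

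Same-numbered libraries of different groups deviated together, although a library correlated best with its own number in only 12 of 24 cases. A fit with the numbers as a block gave 8 higher and 28 lower in KG1A, against 28.8% and 29.7% of all genes. Adjusted p-values of that fit could be far smaller than those of the main fit (EIF3E in KG1A, edgeR adjusted p = 4.06e-54 against 5.53e-07). They rest on the spread left between libraries, which may be technical, and are not read as firmer calls. The fit with the block lost no call. It added EIF2B1, EIF4A3, EIF4EBP2, EIF5A2 and EIF6 to the members that rose, and EIF2D, EIF3A, EIF3B, EIF3M, EIF4H, EIF5, EIF5AL1 and EIF5B to those that fell. In U937 the block added EIF3A and EIF3D, giving 7 higher and 38 lower, beside 37.6% and 38% of all genes. On log2(RPKM + 0.5), without TMM scaling, limma gave a different split in KG1A, with 7 higher and 14 lower beside 28.8% and 15.9% of all genes.

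**Figure D1:**
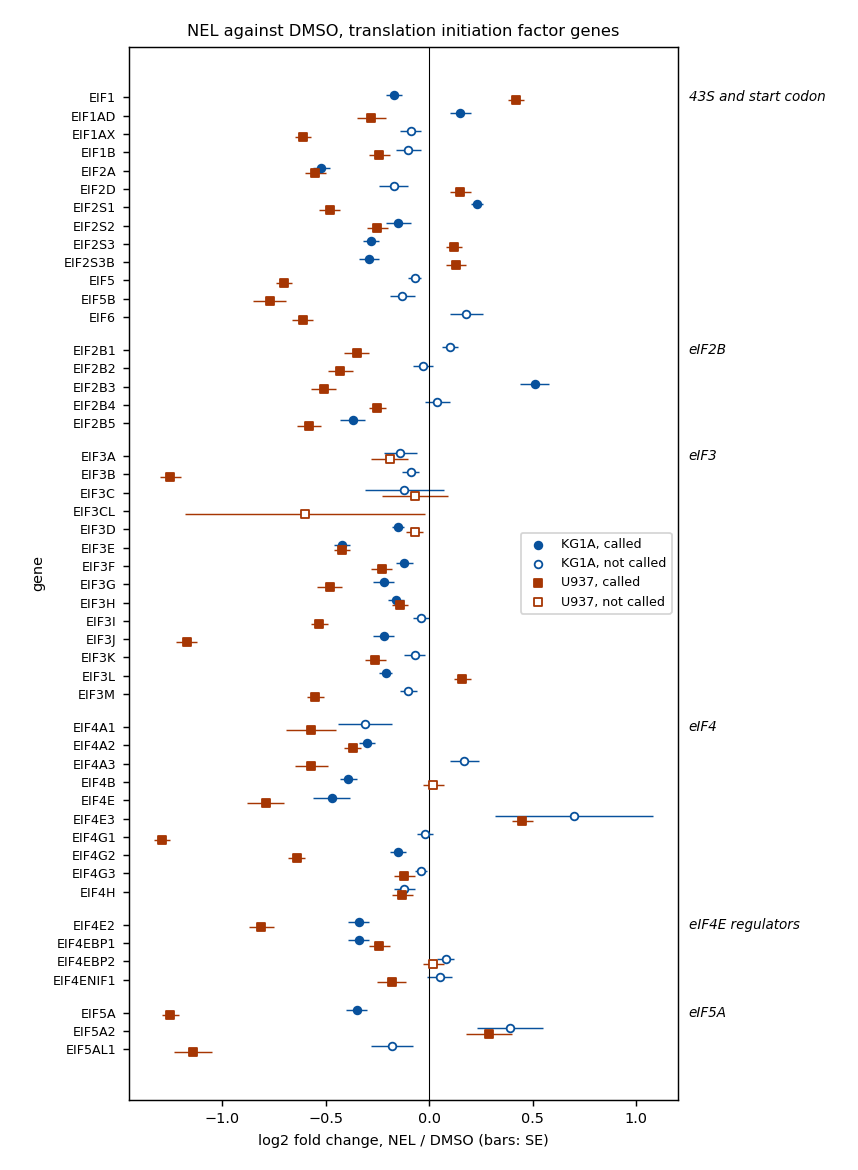
Log2 fold change of NEL against DMSO for each tested member (x axis), by gene and role (y axis), in KG1A (blue circles) and U937 (brown squares), with bars for the standard error, filled symbols for called genes and open ones for genes not called. U937 points reach -1.29 (EIF4G1), whereas called KG1A points lie between -0.52 and 0.51, and 7 genes have filled symbols on opposite sides of 0.

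The largest fall of a member was that of a cap complex gene in U937. EIF4G1 (ENSG00000114867, chromosome 3, 184032283 to 184053146, GRCh37), the scaffold that joins the cap-binding protein to the helicase and to eIF3, read 793, 836, 809 and 835 CPM in U937 with DMSO and 339, 341, 322 and 335 CPM with NEL. The groups were far apart, and the log2 fold change was -1.29 ± 0.04 (SE, n = 4 per group, edgeR adjusted p = 7.71e-12), a 2.44-fold fall, with -1.28 in odd and -1.30 in even libraries. In KG1A the same gene read 461, 496, 477 and 470.4 CPM with DMSO and 447, 482, 476 and 481 CPM with NEL. Those groups overlapped, and the log2 fold change of -0.02 ± 0.04 was not called (edgeR adjusted p = 0.69). The difference between the lines was itself called, at -1.28 ± 0.05 (edgeR adjusted p = 3.81e-14). EIF4G1 lies within the table's model of the member EIF2B5 on the same strand, so the counts of EIF4G1 and EIF2B5 may not be independent.

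EIF4E (ENSG00000151247, chromosome 4, 99792835 to 99851788), which encodes the cap-binding protein, fell in both lines. In KG1A it read 42.7, 49.0, 37.0 and 47.7 CPM with DMSO and 28.2, 34.9, 29.8 and 35.2 CPM with NEL, and in U937 34.3, 44.1, 33.1 and 36.8 CPM with DMSO and 21.9, 22.1, 19.1 and 22.3 CPM with NEL. Every NEL library was below every DMSO library of its line. The log2 fold change was -0.47 ± 0.09 in KG1A (edgeR adjusted p = 0.000775) and -0.79 ± 0.09 in U937 (edgeR adjusted p = 3.42e-06). The difference between the lines, -0.34 ± 0.14, missed the threshold (edgeR adjusted p = 0.0555) and passed it with the replicate block (edgeR adjusted p = 0.000249).

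The helicase gene EIF4A2 fell in both lines. EIF4A2 (ENSG00000156976, chromosome 3, 186500994 to 186507689) read 487, 507, 483 and 521 CPM in KG1A with DMSO and 382, 416, 398 and 431 CPM with NEL. In U937 it read 314, 332, 323 and 347 CPM, and 253, 262, 244 and 257 CPM with NEL. It fell 1.23-fold in KG1A (log2 -0.30 ± 0.04, edgeR adjusted p = 4.89e-05) and 1.29-fold in U937 (log2 -0.37 ± 0.04, edgeR adjusted p = 2.97e-06), with no overlap of groups in either line.

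EIF4A1, the other cytoplasmic helicase, was listed at only 5.96, 6.03, 5.39 and 5.67 CPM in KG1A with DMSO and 4.51, 4.59, 5.52 and 4.06 CPM with NEL. In U937 it read 10.1, 11.3, 8.58 and 8.95 CPM, and 6.84, 7.07, 6.53 and 5.78 CPM with NEL. Its U937 groups did not overlap and it fell 1.48-fold there (edgeR adjusted p = 0.000655), while the KG1A value of -0.31 ± 0.13 was not called (edgeR adjusted p = 0.0614). 2 other genes of the table overlap EIF4A1 on the same strand, so reads could have been split or set aside in counting, and the listed level may not be that of the mRNA. That was not tested. EIF4A3, a helicase of this family that works in the exon junction complex and not at the cap, fell 1.49-fold in U937 (edgeR adjusted p = 1.92e-05). In KG1A EIF4A3 gave 0.17 ± 0.07, which was not called (edgeR adjusted p = 0.0678) and was called higher with the replicate block (5.12e-05).

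EIF4B (ENSG00000063046, chromosome 12, 53399942 to 53435993), a cofactor of the helicase, fell in KG1A and showed no called change in U937. It read 323, 349, 327 and 337 CPM in KG1A with DMSO and 245, 271, 243 and 262 CPM with NEL, and 206, 225, 215 and 223 CPM in U937 with DMSO and 210.0, 234, 207 and 226 CPM with NEL. In KG1A every NEL library was lower (log2 -0.39 ± 0.04, edgeR adjusted p = 3.99e-06), whereas the U937 groups overlapped (0.02 ± 0.05, edgeR adjusted p = 0.767). The difference of 0.40 ± 0.07 between the lines was called (edgeR adjusted p = 2.84e-05). EIF4H, a related cofactor, fell 1.09-fold in U937 (edgeR adjusted p = 0.0287), a call lost with upper quartile factors (adjusted p = 0.186) and on log2(RPKM + 0.5) (limma adjusted p = 0.536).

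Of the other scaffolds, EIF4G2 fell in both lines, by 1.11-fold in KG1A (edgeR adjusted p = 0.0042) and 1.56-fold in U937 (edgeR adjusted p = 2.53e-09). The KG1A call was lost on log2(RPKM + 0.5) (limma adjusted p = 0.0756). EIF4G3, a paralog of EIF4G1, fell 1.09-fold in U937 (edgeR adjusted p = 0.0301), and this call too was lost with upper quartile factors (adjusted p = 0.214) and in limma on log2(RPKM + 0.5) (adjusted p = 0.597). Of the 10 genes tested in this group, in which EIF4A3 is counted, 4 fell and none rose in KG1A at this threshold, where 23.6% of all genes fell and 23.6% rose. In U937 8 fell and 1 rose, where 34.7% of all genes fell and 34.6% rose.

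EIF4E3 (ENSG00000163412, chromosome 3, 71724567 to 71803924), a divergent relative of EIF4E, was the cap complex gene that rose in U937. It read 118, 113, 121 and 129 CPM with DMSO and 165, 159, 167 and 164 CPM with NEL, 1.36-fold higher without overlap (log2 0.45 ± 0.05, edgeR adjusted p = 9.15e-07). KG1A held 2 to 13 counts per library with DMSO and 10 to 17 with NEL, too few to place a change of this size (0.70 ± 0.38, edgeR adjusted p = 0.146).

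**Figure D2:**
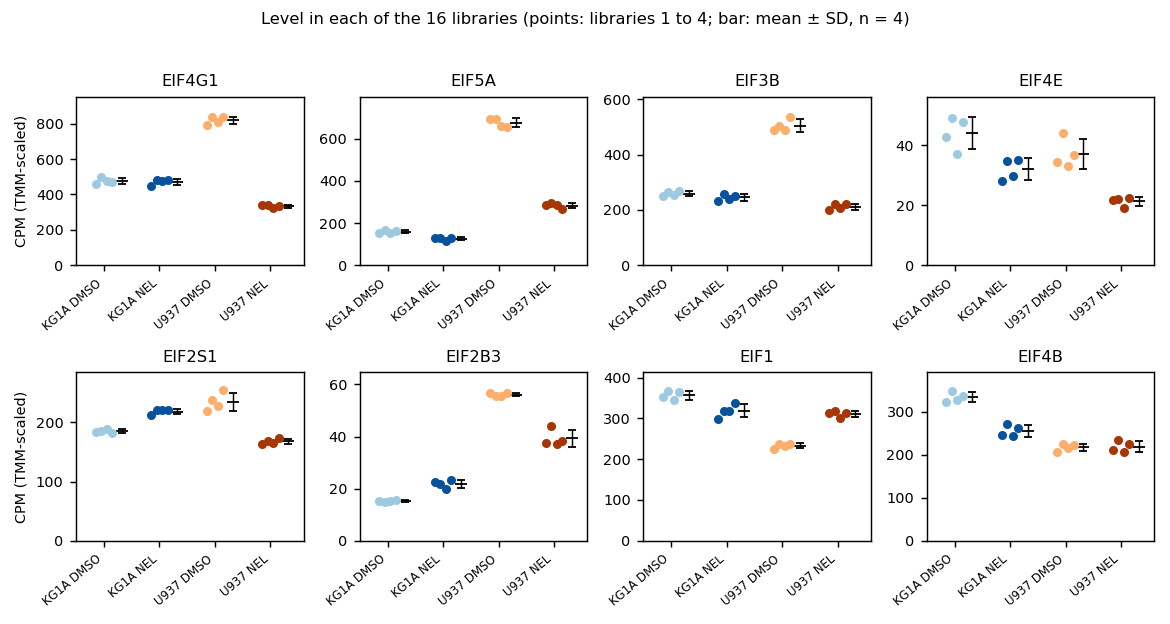
CPM of 8 members in each of the 16 libraries (points, libraries 1 to 4 from left to right), with mean ± SD (bar, n = 4), by group on the x axis and with y axes that start at 0. EIF4G1, EIF5A and EIF3B drop steeply in U937 and little in KG1A, EIF2S1 and EIF2B3 rise in KG1A and fall in U937, EIF1 does the reverse, and EIF4B falls in KG1A alone.

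EIF4E is a textbook target of the transcription factor MYC, which binds the hexamer CACGTG with its partner MAX, as do several related factors. This hexamer reads the same on both strands. The RefSeq promoter windows (GRCh38.p14, 250 bases before to 50 after each gene's start) were searched for it, and no other motif was searched. It was present in 11 of the 43 members with a window (25.6%). Of all genes with a window 8.77% had it, and of those tested in U937 12.5%. The stretches before the start of the cap complex genes are shown because EIF4E, the textbook target, and EIF4G1, which fell most in U937, are in this group, with the hexamer in capitals. EIF4E has 2 copies, on the minus strand at chr4:98929323-98929383 and chr4:98929170-98929235. EIF4G1 has 2 on the plus strand at chr3:184314432-184314497 and chr3:184314509-184314574. EIF4B has 1 at chr12:53006404-53006455 (plus), EIF4A3 1 at chr17:80147214-80147279 (minus) and EIF4H 1 at chr7:74174127-74174192 (plus).
EIF4E, 225 bases before the start: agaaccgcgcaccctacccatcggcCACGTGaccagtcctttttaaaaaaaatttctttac
EIF4E, 72 bases before the start: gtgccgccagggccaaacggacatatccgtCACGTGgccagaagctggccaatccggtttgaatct
EIF4G1, 144 bases before the start: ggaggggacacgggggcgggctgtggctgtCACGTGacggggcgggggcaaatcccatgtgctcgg
EIF4G1, 67 bases before the start: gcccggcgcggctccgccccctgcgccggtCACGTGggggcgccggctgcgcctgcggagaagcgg
EIF4B, 22 bases before the start: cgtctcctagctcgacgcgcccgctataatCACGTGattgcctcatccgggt
EIF4A3, 121 bases before the start: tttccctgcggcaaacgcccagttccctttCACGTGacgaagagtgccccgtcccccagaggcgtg
EIF4H, 199 bases before the start: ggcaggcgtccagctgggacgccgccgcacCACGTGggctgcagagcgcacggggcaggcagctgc

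The values of members with and without the hexamer are set side by side as a description, with no test of the split. In U937 the 10 tested members with it had a median log2 fold change of -0.25, of which 8 fell, and the 31 without it had -0.48, of which 23 fell. The range was -1.29 to 0.29 with the hexamer and -1.25 to 0.45 without it. Among the genes printed, EIF4G1 fell 2.44-fold in U937 and EIF4B showed no called change. A match is a description of these letters and not evidence of binding.

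The repressors of eIF4E differed from one another. EIF4EBP1 (ENSG00000187840, chromosome 8, 37887859 to 37917883) read 308, 299, 339 and 305 CPM in KG1A with DMSO and 260.3, 243, 251 and 237 CPM with NEL. In U937 it read 269.8, 239.5, 248 and 240.3 CPM, and 225, 199, 219 and 202 CPM with NEL. It fell in both lines with no overlap of groups, 1.27-fold in KG1A (log2 -0.34 ± 0.05, edgeR adjusted p = 2.58e-05) and 1.18-fold in U937 (log2 -0.24 ± 0.05, edgeR adjusted p = 0.00111). The difference between the lines was not called (0.10 ± 0.07, edgeR adjusted p = 0.301) and was called with the replicate block (0.09, edgeR adjusted p = 0.0307) and with DESeq2 size factors (0.18, 0.0411). It was not called with libraries 1 and 2, and 3 and 4, summed (0.08, edgeR adjusted p = 0.155), nor in the odd or the even libraries alone.

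EIF4EBP2, which encodes the sister protein 4E-BP2, read 202, 195, 201 and 203 CPM in KG1A with DMSO and 222, 208, 219 and 201 CPM with NEL, and 329.9, 297, 334 and 317 CPM in U937 with DMSO and 338, 314, 326 and 314 CPM with NEL. The groups overlapped in both lines, and neither 0.08 ± 0.04 in KG1A (edgeR adjusted p = 0.131) nor 0.02 ± 0.05 in U937 (edgeR adjusted p = 0.726) was called. The block called the KG1A value (edgeR adjusted p = 0.00788), and limma on log2(RPKM + 0.5) called both lines (adjusted p = 0.0125 and 0.0448). EIF4EBP3 had 0 to 5 counts in a library and was not tested. EIF4E2, a cap-binding protein that represses translation, fell 1.27-fold in KG1A (edgeR adjusted p = 3.12e-05) and 1.76-fold in U937 (edgeR adjusted p = 2.99e-08). EIF4ENIF1, the 4E transporter, fell 1.13-fold in U937 (edgeR adjusted p = 0.0415), a call that leaving out DMSO library 2 or 3 or NEL library 1 or 3 ended (adjusted p from 0.0741 to 0.126), as did upper quartile factors (0.153), DESeq2 (0.0595) and limma on log2(RPKM + 0.5) (0.342).

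Of 13 tested 43S and start codon factors, 2 rose and 5 fell in KG1A, beside 23.6% of all genes in each direction. In U937 4 rose and 9 fell, beside 34.6% and 34.7%. With 13 genes, the share that rose was near that of all genes in both lines, and the share that fell was above it. The 3 subunits of eIF2 did not move together. EIF2S1 (ENSG00000134001, chromosome 14, 67826714 to 67853233), the alpha subunit that stress kinases phosphorylate, read 183, 186, 189 and 182 CPM in KG1A with DMSO and 213, 220.3, 220.3 and 220.1 CPM with NEL. In U937 it read 219, 238, 227 and 254 CPM, and 164, 168, 165 and 173 CPM with NEL. It rose in KG1A (log2 0.23 ± 0.03, edgeR adjusted p = 5.43e-05) and fell in U937 (-0.48 ± 0.05, edgeR adjusted p = 6.94e-07), without overlap in either line. The difference was -0.72 ± 0.06 (edgeR adjusted p = 1.09e-09).

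EIF2S3, the gamma subunit that binds GTP and the initiator tRNA, went the other way. It read 204, 191, 195 and 187 CPM in KG1A with DMSO and 165, 156, 165 and 158 CPM with NEL, and 305, 291, 298 and 292 CPM in U937 with DMSO and 333, 311, 328 and 316 CPM with NEL. It fell in KG1A (-0.28 ± 0.04, edgeR adjusted p = 3.69e-05) and rose slightly in U937 (0.12 ± 0.04, edgeR adjusted p = 0.012), and the difference of 0.39 ± 0.05 was called (edgeR adjusted p = 2.25e-06). Its copy EIF2S3B read 93.5, 104, 93.7 and 99.5 CPM in KG1A with DMSO, 80.9, 81.3, 78.2 and 81.8 CPM with NEL, 126, 135, 128 and 136 CPM in U937 with DMSO and 137, 144, 137 and 154 CPM with NEL. EIF2S3B gave -0.29 ± 0.05 in KG1A (edgeR adjusted p = 0.000121) and 0.13 ± 0.05 in U937 (edgeR adjusted p = 0.0323). These 2 genes share 26.8% of the 50-base stretches of EIF2S3B, so their counts are not independent. Both U937 calls were lost without the low-count filter (edgeR adjusted p = 0.0582 and 0.0911), and that of EIF2S3B also without DMSO library 1 or 3 or NEL library 2 or 4 (0.0673 to 0.124). EIF2S2, the beta subunit, fell 1.11-fold in KG1A (edgeR adjusted p = 0.0403) and 1.19-fold in U937 (edgeR adjusted p = 0.000317). The KG1A call was lost when any 1 of 6 libraries was left out, namely DMSO 1, 2 or 3 or NEL 1, 2 or 4 (edgeR adjusted p from 0.0589 to 0.122), with DESeq2 (0.0562) and on log2(RPKM + 0.5) (limma adjusted p = 0.277).

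EIF1 (ENSG00000173812, chromosome 17, 39845137 to 39848920), which keeps the scanning ribosome from stopping at wrong codons, also moved in opposite directions. It read 352, 368, 344 and 364 CPM in KG1A with DMSO and 299, 319, 319 and 338 CPM with NEL, and 226, 236, 231 and 238 CPM in U937 with DMSO and 313, 317, 299.7 and 314 CPM with NEL. No groups overlapped within a line. It fell by 0.17 ± 0.04 in KG1A on the log2 scale (edgeR adjusted p = 0.00353), a call lost on log2(RPKM + 0.5) (-0.10, limma adjusted p = 0.0991). In U937 it rose by 0.42 ± 0.04 (edgeR adjusted p = 2.6e-07), and the difference was 0.58 ± 0.05 (edgeR adjusted p = 1.49e-08).

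EIF1AD, a nuclear protein with an eIF1A-like domain, read 63.5, 56.0, 61.8 and 57.8 CPM in KG1A with DMSO, 67.5, 65.6, 68.7 and 65.0 CPM with NEL, 42.4, 40.5, 47.5 and 45.1 CPM in U937 with DMSO and 34.8, 37.9, 38.7 and 32.9 CPM with NEL. It rose by 0.15 ± 0.05 in KG1A (edgeR adjusted p = 0.0209) and fell by 0.28 ± 0.07 in U937 (edgeR adjusted p = 0.00211). The KG1A call was lost without DMSO library 2 or 4 or NEL library 3 (edgeR adjusted p from 0.056 to 0.076). EIF1AX, which opens the scanning complex together with eIF1, fell 1.52-fold in U937 (edgeR adjusted p = 2.08e-08) and was not called in KG1A (-0.09 ± 0.05, edgeR adjusted p = 0.151).

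EIF2A (ENSG00000144895, chromosome 3, 150264465 to 150302029), a separate protein that can deliver initiator tRNA without eIF2, fell alike in both lines. It read 169, 179, 163 and 172 CPM in KG1A with DMSO and 122, 119.9, 119.5 and 116 CPM with NEL, and 175, 166, 181 and 188 CPM in U937 with DMSO and 120.5, 124, 122 and 116 CPM with NEL. It gave the largest called fall in KG1A, 1.44-fold (log2 -0.52 ± 0.04, edgeR adjusted p = 1.25e-07), and fell 1.46-fold in U937 (log2 -0.55 ± 0.05, edgeR adjusted p = 1.16e-07). The difference between the lines was -0.04 ± 0.06 (edgeR adjusted p = 0.659). EIF2D, another such factor, rose 1.11-fold in U937 (edgeR adjusted p = 0.0103). In KG1A EIF2D gave -0.17 ± 0.07 (edgeR adjusted p = 0.0552), called with the block (0.000414) and without DMSO library 4 (0.0184) or NEL library 1 (0.00842).

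The factors of late initiation fell in U937. EIF5, which makes eIF2 hydrolyse its GTP at the start codon, fell 1.62-fold (edgeR adjusted p = 2.69e-09), and EIF5B, the GTPase that joins the ribosomal subunits, fell 1.71-fold (edgeR adjusted p = 1.56e-06). Neither was called in KG1A (EIF5 -0.07 ± 0.03, EIF5B -0.13 ± 0.06), and both were called lower with the block (edgeR adjusted p = 0.00277 and 3.47e-07). EIF6, which holds the large subunit apart from the small one, read 23.4, 24.6, 26.8 and 21.2 CPM in KG1A with DMSO and 27.3, 26.4, 29.9 and 25.5 CPM with NEL, and 83.6, 80.2, 82.0 and 74.5 CPM in U937 with DMSO and 51.8, 52.6, 54.7 and 49.7 CPM with NEL. EIF6 fell 1.53-fold in U937 without overlap (edgeR adjusted p = 1.15e-07). In KG1A the groups of EIF6 overlapped and 0.18 ± 0.08 was not called (edgeR adjusted p = 0.0787), but it was called as a rise with the block (0.0102) and on log2(RPKM + 0.5) (limma adjusted p = 0.0227). The difference was -0.80 ± 0.09 (edgeR adjusted p = 2.46e-07).

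All 5 eIF2B genes, which encode the exchange factor that recharges eIF2 with GTP, fell in U937, by 1.19-fold to 1.5-fold, where 34.7% of all genes fell, and all 5 differences between the lines were called. EIF2B3 (ENSG00000070785, chromosome 1, 45316450 to 45452282), a subunit of the catalytic part, read 15.3, 14.8, 15.2 and 15.7 CPM in KG1A with DMSO and 22.5, 21.9, 19.8 and 23.3 CPM with NEL. In U937 EIF2B3 read 56.6, 55.6, 55.6 and 56.6 CPM, and 37.4, 44.0, 37.3 and 38.4 CPM with NEL. It rose 1.43-fold in KG1A (log2 0.51 ± 0.07, edgeR adjusted p = 5.39e-05), the largest called rise of a member there, and fell 1.42-fold in U937 (-0.51 ± 0.06, edgeR adjusted p = 2.77e-06), so that the difference reached -1.03 ± 0.09 (edgeR adjusted p = 4.94e-09).

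EIF2B5, the catalytic subunit, fell in both lines, 1.30-fold in KG1A (edgeR adjusted p = 0.000122) and 1.5-fold in U937 (edgeR adjusted p = 1.01e-06). The table's model of EIF2B5 spans 183852826 to 184402546 on chromosome 3 and overlaps 13 other genes on its strand, EIF4G1 among them. Its counting is thus uncertain, and its values may not be independent of those of EIF4G1. The EIF2B5 difference between the lines was weak (-0.22, edgeR adjusted p = 0.0452) and was lost with DESeq2 size factors (0.234), upper quartile factors (0.177), limma on log2(RPKM + 0.5) (0.112) and when 1 of 8 libraries was left out (up to 0.106). EIF2B2, a regulatory subunit, read 89.9, 81.3, 93.7 and 85.8 CPM in KG1A with DMSO, 83.1, 83.3, 93.5 and 85.5 CPM with NEL, 31.3, 31.6, 33.2 and 33.8 CPM in U937 with DMSO and 25.3, 24.2, 21.9 and 25.1 CPM with NEL. EIF2B2 overlapped in KG1A (-0.03 ± 0.05, edgeR adjusted p = 0.678) and fell 1.35-fold in U937 (edgeR adjusted p = 4.19e-05).

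The eIF3 genes encode the largest initiation complex, a platform that binds the small subunit and eIF4G. In KG1A 7 of 13 tested fell and none rose, beside 23.6% of all genes in each direction. In U937 9 of 14 fell and 1 rose, beside 34.7% and 34.6% of all genes. EIF3B (ENSG00000106263, chromosome 7, 2393721 to 2420380) encodes a scaffold subunit. It read 489, 503, 488 and 536 CPM in U937 with DMSO and 199, 220.4, 207 and 220.2 CPM with NEL, without overlap. It fell 2.38-fold (log2 -1.25 ± 0.05, edgeR adjusted p = 5.57e-11). In KG1A EIF3B read 250.5, 265, 254 and 268 CPM with DMSO and 231, 259, 239.6 and 249.7 CPM with NEL. Those groups overlapped, and -0.09 ± 0.04 was not called (edgeR adjusted p = 0.094), but it was with the block (0.000656) and without NEL library 2 (0.0424). The difference was -1.17 ± 0.06 (edgeR adjusted p = 3e-12).

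EIF3J (ENSG00000104131, chromosome 15, 44829255 to 44855227), a loosely attached subunit near the decoding site, read 246, 272, 259 and 287 CPM in U937 with DMSO and 114, 118, 116 and 124 CPM with NEL, and 154, 160.0, 154 and 158 CPM in KG1A with DMSO and 128, 145, 125 and 141 CPM with NEL. It fell in both lines without overlap, 2.25-fold in U937 (edgeR adjusted p = 2.09e-10) and 1.17-fold in KG1A (edgeR adjusted p = 0.00133), and the difference of -0.96 ± 0.07 was called (edgeR adjusted p = 4.78e-10). EIF3I, a subunit bound to EIF3B, fell 1.44-fold in U937 (edgeR adjusted p = 7.03e-08) and was not called in KG1A (-0.04 ± 0.04, edgeR adjusted p = 0.404).

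The subunit genes EIF3E, EIF3F and EIF3H fell in both lines by amounts whose differences were not called. EIF3E (ENSG00000104408, chromosome 8, 109213445 to 109447562) read 779.7, 725, 767 and 754 CPM in KG1A with DMSO and 570.4, 546, 585 and 564 CPM with NEL, and 517, 478, 535 and 515 CPM in U937 with DMSO and 395, 369, 393 and 368 CPM with NEL. The fall was 1.34-fold in each line (log2 -0.42 ± 0.04 in both, edgeR adjusted p = 5.53e-07 in KG1A and 1.43e-06 in U937). EIF3H read 607, 579.8, 638 and 589.8 CPM in KG1A with DMSO, 563, 509, 560.4 and 535 CPM with NEL, 331, 323, 336 and 333 CPM in U937 with DMSO and 309.7, 299, 306 and 288 CPM with NEL. Its falls of 1.12-fold and 1.10-fold (edgeR adjusted p = 0.00647 and 0.00601) were lost on log2(RPKM + 0.5) (limma adjusted p = 0.0981 in KG1A and 0.239 in U937), and the U937 one with upper quartile factors (0.0826).

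EIF3F read 108, 113, 109 and 114 CPM in KG1A with DMSO, 102, 105, 99.9 and 104 CPM with NEL, 50.5, 54.8, 51.6 and 54.5 CPM in U937 with DMSO and 45.6, 46.9, 44.1 and 43.6 CPM with NEL. It fell 1.08-fold in KG1A (edgeR adjusted p = 0.0237) and 1.17-fold in U937 (edgeR adjusted p = 0.00117). The KG1A call of EIF3F was lost without DMSO library 2 or 4 or NEL library 3 (0.062 to 0.0763), with DESeq2 (0.0632) and on log2(RPKM + 0.5) (limma adjusted p = 0.383), and the U937 call on the same RPKM scale (0.054).

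EIF3L (ENSG00000100129, chromosome 22, 38244875 to 38285414), a subunit that binds EIF3K, was the eIF3 gene that rose in U937. It read 309, 304, 320.1 and 315 CPM with DMSO there and 354, 344, 344 and 351 CPM with NEL (0.16 ± 0.04, edgeR adjusted p = 0.00112). In KG1A EIF3L read 462, 455, 484 and 461 CPM with DMSO and 398, 412, 402 and 407 CPM with NEL (-0.21 ± 0.03, edgeR adjusted p = 0.000176). Neither line's groups overlapped, and the difference of 0.36 ± 0.05 was called (edgeR adjusted p = 1.09e-06). EIF3D, a subunit that can itself bind the cap, fell 1.11-fold in KG1A (edgeR adjusted p = 0.00254) and was not called in U937 (-0.07 ± 0.04, edgeR adjusted p = 0.113), where the block called it (0.0187). The KG1A call of EIF3D was lost on log2(RPKM + 0.5) (limma adjusted p = 0.0513). Its difference between the lines was not called (0.07 ± 0.05, edgeR adjusted p = 0.237), nor with the block (0.101). That difference was called with DESeq2 size factors (0.16, edgeR adjusted p = 0.00839), upper quartile factors (0.14, 0.0176), DESeq2 (0.00157) and limma on log2(RPKM + 0.5) (0.10, 0.0264).

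EIF3A was not called in either line (-0.14 ± 0.08, edgeR adjusted p = 0.143 in KG1A, and -0.19 ± 0.09, 0.0858 in U937). With the replicate block it was lower in both (edgeR adjusted p = 2.62e-09 and 2.35e-08). EIF3C had only 49 to 142 counts in a library and EIF3CL 1 to 57, and 97.2% of the 50-base stretches of EIF3CL occur in EIF3C. Their counts are thus uncertain, and neither was called in a comparison of NEL with DMSO. EIF3CL did not pass the low-count filter in KG1A.

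**Figure D3:**
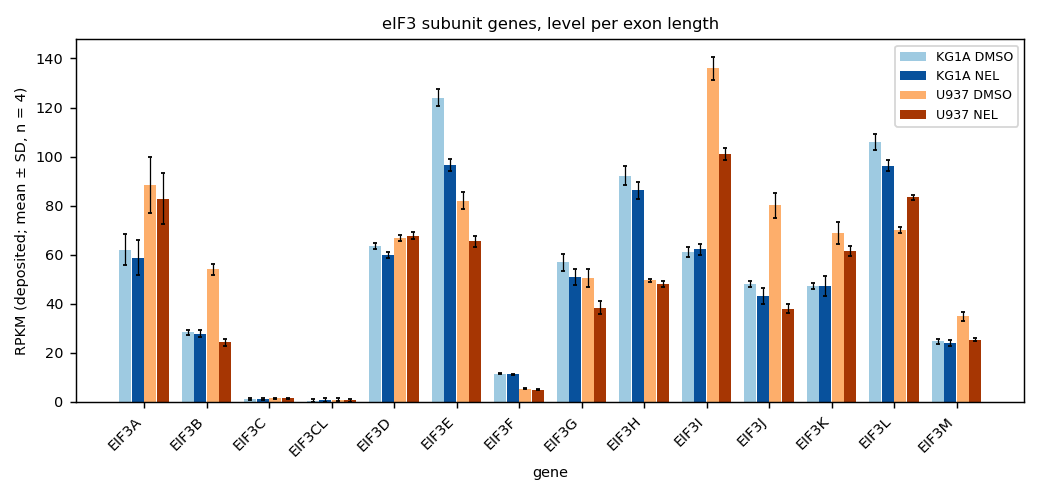
Deposited RPKM of the 14 eIF3 genes (mean ± SD, n = 4) in the 4 groups, with the y axis from 0. In KG1A with DMSO EIF3E leads at 124 and in U937 with DMSO EIF3I at 136, while EIF3C and EIF3CL stay under 2 in every group. Heights of different genes depend on the deposited exon length of each.

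In RPKM, the order of the eIF3 genes differed between the lines. In KG1A with DMSO it ran EIF3E (124), EIF3L (106) and EIF3H (92.1 RPKM), each apart from the next, followed by EIF3D, EIF3A and EIF3I at 61.1 to 63.4 RPKM, whose libraries overlapped. In U937 with DMSO EIF3I (136 RPKM) stood alone, and EIF3A, EIF3E and EIF3J at 80.2 to 88.4 RPKM overlapped. EIF3F was the lowest of the well-counted subunits in both lines, at 11.5 ± 0.369 and 5.40 ± 0.223 RPKM. The order depends on the deposited exon lengths, which were 9431 bases for EIF3F and 1725 bases for EIF3I. In KG1A with DMSO these genes stood at 111 and 107 CPM, against 11.5 and 61.1 RPKM. NEL moved EIF3J and EIF3B down this order in U937, from 80.2 ± 5.09 to 38.0 ± 1.69 RPKM and from 54.0 ± 2.31 to 24.2 ± 1.34 RPKM.

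EIF5A (ENSG00000132507, chromosome 17, 7210318 to 7215774) encodes the factor that carries the modified lysine hypusine and helps ribosomes through proline-rich stretches. It read 692, 694, 662 and 654 CPM in U937 with DMSO and 285, 293, 287 and 268 CPM with NEL, and 152, 165, 154 and 163 CPM in KG1A with DMSO and 129.7, 127, 114 and 131 CPM with NEL. It fell 2.38-fold in U937 (log2 -1.25 ± 0.04, edgeR adjusted p = 2e-11) and 1.27-fold in KG1A (-0.35 ± 0.05, edgeR adjusted p = 3.61e-05), with no overlap in either line. The difference was -0.91 ± 0.06 (edgeR adjusted p = 1.18e-10).

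The sister gene EIF5A2 was much rarer and moved the other way in U937. It read 14.9, 16, 14.2 and 20.4 CPM with DMSO and 19.0, 22.1, 18 and 20.7 CPM with NEL (0.29 ± 0.11, edgeR adjusted p = 0.0301), and the groups overlapped. That EIF5A2 call was lost without DMSO library 1, 2 or 3 or NEL library 2 or 4 (0.0672 to 0.1). In KG1A EIF5A2 read 4.07, 4.45, 3.63 and 3.38 CPM with DMSO and 4.78, 6.09, 5.52 and 3.97 CPM with NEL (0.39 ± 0.16, edgeR adjusted p = 0.0606), called with the block (0.0243). EIF5AL1, a copy that shares 11.6% of its 50-base stretches with EIF5A, fell 2.20-fold in U937 (edgeR adjusted p = 5.12e-08), from 68.2, 80.7, 69.0 and 89.2 CPM to 33.8, 38.2, 31.7 and 35.4 CPM. The counts of EIF5AL1 and EIF5A may thus not be independent. In KG1A EIF5AL1 read 23.5, 28.8, 24.6 and 27.9 CPM and, with NEL, 21.1, 24.8, 20.1 and 27.3 CPM, overlapping groups whose value of -0.18 ± 0.10 was not called (edgeR adjusted p = 0.158) and was called with the block (0.0125).

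Whether the NEL effect differed between the lines was tested as the interaction term over all 16 libraries. Of 49 members tested, 24 had a lower and 6 a higher effect in U937 than in KG1A, beside 26.3% and 21.1% of all genes tested, and the block gave 27 and 7, beside 30.1% and 24.5%. EIF1AD, EIF2B3 and EIF2S1 rose in KG1A and fell in U937, as did 5.61% of all genes tested in both lines, and EIF1, EIF2S3, EIF2S3B and EIF3L fell in KG1A and rose in U937, as did 5.54%. For the 48 members tested in both lines, neither share is far from that of all genes. Another 14 fell in both, beside 12.6% of all genes. The interaction was called for 6 of these, EIF2B5, EIF3G, EIF3J, EIF4E2, EIF4G2 and EIF5A (for EIF3G not with DESeq2 size factors, adjusted p = 0.0659), and not for 8, EIF2A, EIF2S2, EIF3E, EIF3F, EIF3H, EIF4A2, EIF4E and EIF4EBP1. EIF3A, EIF3C and EIF4EBP2 were called in neither line.

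U937 with DMSO was compared with KG1A with DMSO, and 29 of 49 members tested were higher and 14 lower in U937, with 43% and 43.4% of all genes tested called in each direction. Both directions together, the members were called about as often as all genes. The median log2 difference of the members was 0.35, and that of all genes lay between -0.01 and 0.05 under every scaling tried. Within the odd libraries the median of the members was 0.37, and within the even ones 0.33. The groups did not overlap, with U937 above, for 30 members (43.1% of all genes) and, with U937 below, for 11 (38.5%).

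EIF4E3 showed the widest gap, with 0.189, 0.556, 1.21 and 1.01 CPM in KG1A with DMSO against the U937 values above (log2 7.23 ± 0.14, 151-fold, edgeR adjusted p = 2.63e-17), and the 32 counts over the KG1A group limit its precision. EIF5A was 4.02-fold higher in U937 (log2 2.01 ± 0.04, edgeR adjusted p = 1.07e-16), EIF5A2 3.97-fold (edgeR adjusted p = 7.53e-10), EIF2B3 3.47-fold (edgeR adjusted p = 1.55e-14) and EIF6 3.15-fold (edgeR adjusted p = 4.1e-13). In the other direction EIF2B2 was 2.86-fold lower in U937 (log2 -1.52 ± 0.06, edgeR adjusted p = 1.26e-13), EIF3F 2.22-fold (edgeR adjusted p = 3.49e-13) and EIF3H 1.93-fold (edgeR adjusted p = 9.59e-13). In eIF2B, EIF2B3 and EIF2B4 were higher in U937 by more than 2-fold and EIF2B2 lower by more than 2-fold. In eIF3, 6 of 14 were higher and 5 lower, shares near the 43% and 43.4% of all genes, with EIF3I 2.14-fold higher (edgeR adjusted p = 2.5e-13).

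The members with the 5 largest falls in U937 also started higher there than in KG1A, by 1.62-fold for EIF4G1, 1.84-fold for EIF3B, 4.02-fold for EIF5A, 1.60-fold for EIF3J and 2.76-fold for EIF5AL1. The U937 DMSO libraries enter both the NEL comparison and the comparison of lines, so a high reading in them would move both values, and no relation is drawn from these figures.

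**Figure D4:**
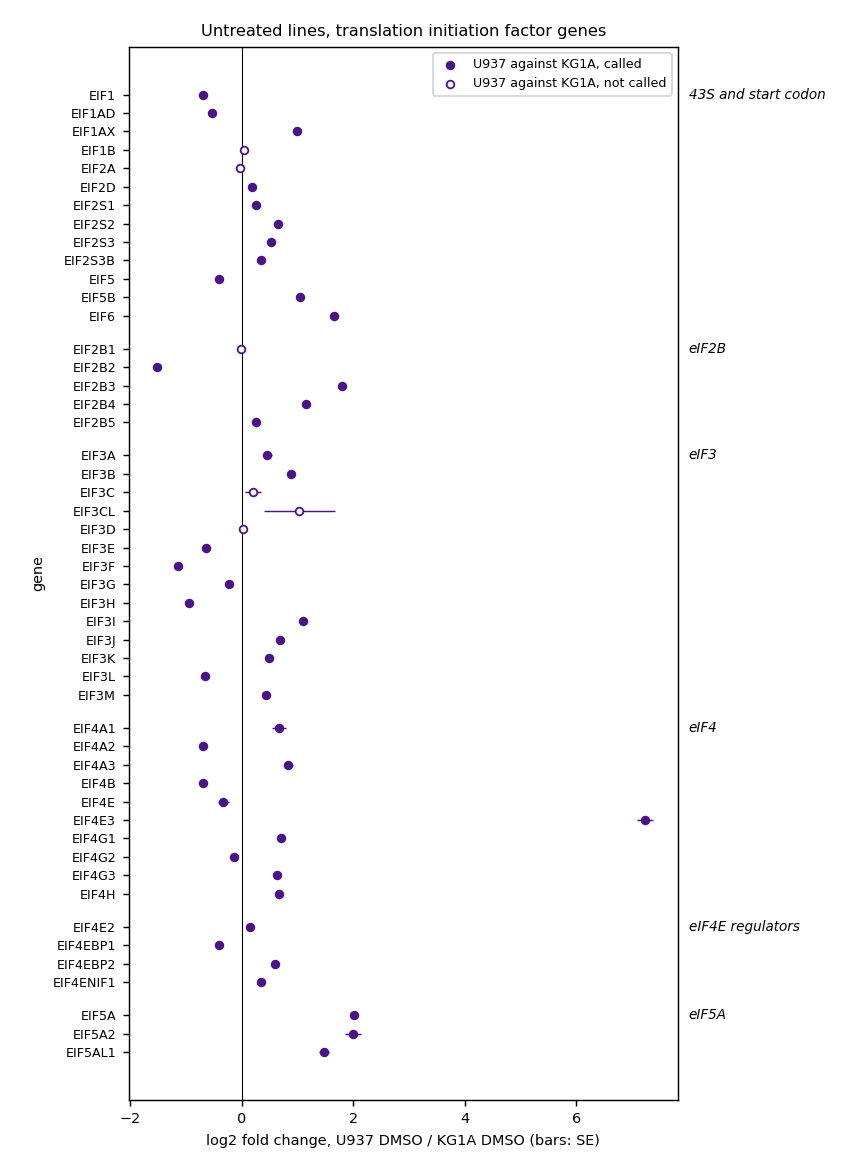
Log2 fold change of U937 with DMSO against KG1A with DMSO for each tested member (x axis), by gene and role (y axis), with bars for the standard error, filled symbols for called genes and open ones for genes not called. Most points lie between -2 and 2, with EIF4E3 at 7.23, and each complex has genes on both sides of 0 except the EIF5A group.

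Other genes of the pathway were taken from 4 lists of genes outside the EIF names. Of 9 genes for the eIF2 kinases and the phosphatase that reverses them, 2 rose and 2 fell in KG1A, and 3 rose and 3 fell in U937. These shares are close to those of all genes, 23.6% in each direction in KG1A and 34.6% and 34.7% in U937. PPP1R15A, the stress-induced subunit that brings the phosphatase to eIF2, rose from 58.1 to 121 CPM in U937 (mean, n = 4, log2 1.06, edgeR adjusted p = 3.49e-07) and from 27.5 to 34.6 CPM in KG1A (0.32, edgeR adjusted p = 0.0105). The phosphatase catalytic genes PPP1CC in KG1A (-0.25, edgeR adjusted p = 0.000356) and PPP1CA in U937 (-0.24, edgeR adjusted p = 0.00104) gave the largest called falls.

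Of 20 tested genes of mTORC1, the MNK kinases and the S6 kinases, 2 rose and 9 fell in KG1A (23.6% of all genes each way), and 5 rose and 10 fell in U937 (34.6% and 34.7%). DDIT4, a stress-induced inhibitor of mTORC1, rose from 55.7 to 192 CPM in U937 (log2 1.79, edgeR adjusted p = 1.37e-11) and fell from 87.7 to 73.3 CPM in KG1A (-0.27, edgeR adjusted p = 0.000873). The largest called rise in KG1A was that of MKNK1, a kinase that phosphorylates eIF4E (0.68, edgeR adjusted p = 3.57e-07), and the largest fall that of DEPTOR, an mTOR inhibitor (-1.31, edgeR adjusted p = 7.02e-06). LARP1, which binds mRNAs of the translation machinery, fell most in U937 (-0.70, edgeR adjusted p = 1.73e-09). These mRNA values say nothing of kinase activity.

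Of the initiation cofactors without an EIF name, 3 of 17 rose and 12 fell in KG1A (23.6% of all genes each way), and 3 of 18 rose and 13 fell in U937 (34.6% and 34.7%). PABPC1, the poly(A)-binding protein that contacts eIF4G, fell most in KG1A, from 5055 to 3555 CPM (log2 -0.51, edgeR adjusted p = 2.01e-07). In KG1A the largest called rises were those of NCBP1 and NCBP3, nuclear cap-binding proteins (both 0.25, edgeR adjusted p = 7.67e-05 and 0.0134). In U937 NCBP2, the small nuclear cap-binding subunit, fell most (-0.99, edgeR adjusted p = 4.01e-08), and PAIP2, an inhibitor of PABPC1, rose most (0.50, edgeR adjusted p = 2.03e-07). Of 9 tested elongation and termination genes, 4 fell in KG1A and 7 in U937, beside 23.6% and 34.7% of all genes. None rose in either line at this threshold, beside 23.6% and 34.6% of all genes. EEF1A1, the elongation factor that delivers tRNA, fell most in KG1A (-0.40, edgeR adjusted p = 4.27e-06), and ETF1, the release factor, fell most in U937 (-0.82, edgeR adjusted p = 1.13e-08).

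Among the members not described above, EIF4E1B, a germline relative of EIF4E, had 0 counts in all 16 libraries. EIF1B, the paralog of EIF1, fell 1.18-fold in U937 (edgeR adjusted p = 0.00102) and was not called in KG1A (-0.10 ± 0.06, edgeR adjusted p = 0.203). EIF3G, a subunit that binds mRNA, fell 1.17-fold in KG1A (edgeR adjusted p = 0.00169) and 1.40-fold in U937 (edgeR adjusted p = 4.1e-06). EIF3K and EIF3M fell 1.19-fold and 1.47-fold in U937 (edgeR adjusted p = 0.000393 and 7.82e-08) and were not called in KG1A (-0.07 ± 0.05 and -0.10 ± 0.04), where the block called EIF3M (edgeR adjusted p = 0.00108). EIF2B1 and EIF2B4, subunits of the regulatory part of eIF2B, fell 1.28-fold and 1.19-fold in U937 (edgeR adjusted p = 6.15e-05 and 0.000158), and in KG1A the block called EIF2B1 higher (0.10, edgeR adjusted p = 0.0143).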

How the data were processed

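Per the labels' protocols, stranded polyadenylated RNA libraries were sequenced from KG1A and U937 cells. The authors deposited raw read counts per gene and RPKM values of the same 16 libraries. Reads were aligned to hg19 (GRCh37) and counted with tools that include HTSeq 0.11.2, TopHat2 and bcl2fastq 2.18.0.12, per the submitters' processing notes. Which annotation and strand setting they used is not given in the sources here, so overlapping and antisense genes are uncertain. EIF3J, EIF4B and EIF6 each overlap 1 other gene of the table on the same strand. Other members with such an overlap are EIF2B5, EIF4A1, EIF4EBP3 and EIF4G1. The deposited RPKM values could be computed from the counts, exon lengths and totals to within a relative deviation of 1.86e-07, and add no independent evidence.

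Symbols were found for 32562 of 34618 gene IDs, and 0 columns lacked a sample. Counts were tested over the whole table with edgeR 4.0.16 (TMM factors, quasi-likelihood fit, low-count filter with a minimum count of 10 and minimum total of 15) in R 4.3.3, after the code was tested on simulated data. NEL was compared with DMSO over the 8 libraries of a line, the lines over the DMSO libraries, and the difference of effects as an interaction over all 16. A gene was called at a Benjamini-Hochberg adjusted p under 0.05. The depth given with the results sets the precision of each value. Alternatives were DESeq2 1.42.0 (test or size factors), upper quartile factors, no filter or 1 CPM in 4 libraries, limma 3.58.1 on log2(RPKM + 0.5) or log2(RPKM + 0.1), an adjusted p under 0.01, each library left out, 1 model of all groups, odd or even libraries alone or as a covariate, and the replicate block. Sums of libraries 1 and 2 and of 3 and 4 were added after seeing the data. Deviations of same-numbered libraries from their group means correlated at 0.264 to 0.39 over the 24 pairs, so the numbers were taken to pair libraries. The best match was the same number in 12 of the 24, and the other 12 best matches lay within the same odd or even set, so pairs and sets cannot be told apart. The main fit was left unblocked as designed. Shared 50-base stretches were counted between transcripts of the reference.

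The members, the 4 lists and the markers were chosen with earlier results of these data known. All members may be named. Values per library are given for 10 listed genes (EIF4E, EIF4G1, EIF4A1, EIF4A2, EIF4EBP1, EIF4EBP2, EIF5A, EIF2S1, EIF6 and EIF1) and for the 4 largest and 4 smallest called log2 fold changes per comparison among members with at least 5 CPM in the higher group. Of each list, the called genes with the largest and smallest value per line are named. CYFIP1, a listed gene, was not analysed here. Values of some markers of other cells are not reported here. Python 3.11.15 with matplotlib 3.10.9 drew the figures.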

Additional observations from a re-analysis of the deposited data

Results flagged for a closer look

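The NEL effect differed between the lines, by the interaction test over all 16 libraries in edgeR, for 30 of the 49 members tested, beside 21.1% of all genes called higher and 26.3% called lower. The log2 fold change in U937 minus that in KG1A was above 0 for 6 of them. These were EIF1 at 0.58, EIF2S3B and EIF4B at 0.40 each, EIF2S3 at 0.39, EIF3L at 0.36 and EIF2D at 0.31. It was below 0 for the other 24, most of all for EIF4G1 at -1.28, EIF3B at -1.17 and EIF2B3 at -1.03. EIF5AL1 followed at -0.97, EIF3J at -0.96, EIF5A at -0.91, EIF6 at -0.80, EIF4A3 at -0.75 and EIF2S1 at -0.72. The differences of EIF5B at -0.66, EIF5 at -0.64, EIF1AX at -0.53, EIF4G2 at -0.50, EIF3I at -0.49, EIF4E2 at -0.48, EIF3M at -0.47, EIF2B1 at -0.46, EIF1AD at -0.44 and EIF2B2 at -0.41 were smaller. Last came EIF2B4 at -0.30, EIF3G at -0.27, EIF4ENIF1 at -0.24, EIF2B5 at -0.22 and EIF3K at -0.20. EIF2B5, EIF3K and EIF4ENIF1 lost the call when single libraries were left out (8, 6 and 10 of the 16 libraries, edgeR adjusted p up to 0.106, 0.0653 and 0.114). With DESeq2 size factors EIF3G (-0.18, adjusted p = 0.0659), EIF3K (-0.11, 0.222), EIF4ENIF1 (-0.16, 0.208) and EIF2B5 (-0.13, 0.234) lost it. EIF3K, EIF4ENIF1 and EIF2B5 also lost it with upper quartile factors (adjusted p = 0.154, 0.161 and 0.177) and with limma on log2(RPKM + 0.5) (0.103, 0.0887 and 0.112).

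Single libraries stood apart from the other 3 of their group for 10 of the 196 sets of 4 values looked at, which is about what chance gives, since chance flags about 1 in 20. In KG1A with DMSO these were the lowest EIF1AX value, 64.6 CPM, the highest EIF4G3 value, 134 CPM, and the highest EIF3CL value, 3.84 CPM. Without that library EIF3CL would be called higher in U937 than in KG1A (log2 2.74, edgeR adjusted p = 0.00115). In KG1A with NEL they were the highest EIF2D value, 57.9 CPM, the lowest EIF2S1 value, 213 CPM, and the lowest EIF4G1 value, 447 CPM. In U937 with DMSO it was the highest EIF3D value, 291 CPM. In U937 with NEL they were the highest EIF2B3 value, 44.0 CPM, the highest EIF4G2 value, 624 CPM, and the lowest EIF4E value, 19.1 CPM.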

How the results depend on the processing

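The count of members that rose in KG1A was the least stable, 3 in the main fit. It was 7 with limma on log2(RPKM + 0.5) and 7 on log2(RPKM + 0.1), 8 with the replicate block, 8 with the odd or even set as a covariate, 5 in the even-numbered libraries alone and 8 with libraries 1 and 2, and 3 and 4, summed, an alternative chosen after seeing the data. The 7 members that rose in U937 became 3 at an adjusted p under 0.01. Leaving out 1 library gave 2 to 5 higher and 18 to 22 lower in KG1A, 5 to 7 and 33 to 37 in U937, 6 to 6 and 21 to 25 for the difference, and 29 to 30 and 14 to 14 between the lines. Other counts of calls stayed within 1.5 times of the main one under the alternatives run. Apart from the changes given with the results, the block changed only the interaction of EIF2S2 and EIF3CL (lower, edgeR adjusted p = 0.034 and 0.0343) and the line difference of EIF3CL (higher, 5.61e-05).

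No called value of a member changed sign under the alternatives run. Of 195 values, 23 changed sign under at least 1 of them, all of them not called in the main fit. Only 1 was called with the other sign, the difference of NEL effects between the lines for EIF4E3, which was -0.26 and became 0.40 with limma on log2(RPKM + 0.5) (adjusted p = 0.000738). Of the others EIF3CL in U937 moved most, from -0.60 to 0.36 in the odd libraries. In the limma fit named for EIF4E3, the pseudocount exceeds the KG1A values of EIF4E3. Between the untreated lines, EIF4E lost its call with limma on log2(RPKM + 0.5) (adjusted p = 0.0561). EIF2D lost it without KG1A DMSO library 4 (edgeR adjusted p = 0.0506) and EIF4G2 in 1 model of all groups (0.11). In U937, EIF4H and EIF4G3 lost theirs without DMSO library 2 or 4 or NEL library 1 or 3 (EIF4H, 0.0629 to 0.0821) or 1 or 4 (EIF4G3, 0.0606 to 0.0751). EIF4E3 in KG1A, EIF3C, EIF3CL and EIF4EBP3 are limited by few counts. For EIF3C and EIF3CL the shared sequence is a further limit that depth alone would not remove. EIF4EBP3 overlaps 2 other genes of the table on its strand.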
